A study of Mus musculus with 22 samples.

Results

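The comparison described here is loss of TERT in KIT-negative spermatogonia of the mouse, measured by ATAC-seq in 6 TERT-deleted and 5 control libraries, which are 11 of the 22 libraries of the study. The libraries were chosen by their labels: every spermatogonial library with KIT-negative as its marker entry, from both the MCAM-high and the MCAM-medium sort gate. The 2 gates were pooled because those of the control libraries numbered 1 look exchanged, as measured below. The table holds 96049 peaks, of which 93867 lie on autosomes, and the text is about the autosomal peaks. All mice were C57BL/6, 8 to 12 weeks old, and were given tamoxifen, and their cells were sorted at day 7. The titles call the control mice TERT-hetero and the others TERT-deleted, whereas the genotype entry is TertCreER/+:Rosalsl-Tdtomato/+ for both. By that entry both groups carry a tamoxifen-inducible Cre under Tert and a Cre-dependent tdTomato reporter at Rosa, so that neither is wild type. The titles name no littermates and do not say which stretch of Tert was removed. A further 6 KIT-positive libraries (3 control, 3 deleted) and 5 control libraries of later germ cells were used only for comparison.

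TERT is the catalytic subunit of telomerase, the reverse transcriptase that extends chromosome ends by copying a template carried in the RNA Terc. In the testis, telomerase activity is known to be high in spermatogonia. In ATAC-seq the Tn5 transposase cuts open chromatin and attaches sequencing adapters, so that peaks mark accessible promoters, enhancers and other regulatory sites. KIT is the receptor that appears as spermatogonia differentiate, and MCAM is an adhesion molecule used to sort undifferentiated spermatogonia.

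A peak was called a gene-end peak when it lay within 1 kb of either end of an annotated gene, because the gene table used has no strand. A start-site peak overlapped the window from 250 bases before to 50 bases after a RefSeq transcription start. Of the 21 called peaks, 5 were start-site peaks, all higher after deletion. Start-site peaks made up 27.8% of the autosomal peaks tested. Of the 5 called ones 3 are described below. The RefSeq windows (GRCm38.p6) of these 3 are printed, with that of Tert, to show which start sites the calls fell on. They are the windows of Mfsd8 (chr3:40846805-40847104, minus strand), 4931408C20Rik (chr1:26687411-26687710, minus strand), Gm34095 (chr15:84576608-84576907, minus strand) and Tert (chr13:73626661-73626960, plus strand). Capitals mark matches, on either strand, to 4 motifs that do not overlap one another here: CACGTG (an E-box), CCGGAA (the core of ETS sites), GGGCGG (a GC box) and CCAAT.
Mfsd8: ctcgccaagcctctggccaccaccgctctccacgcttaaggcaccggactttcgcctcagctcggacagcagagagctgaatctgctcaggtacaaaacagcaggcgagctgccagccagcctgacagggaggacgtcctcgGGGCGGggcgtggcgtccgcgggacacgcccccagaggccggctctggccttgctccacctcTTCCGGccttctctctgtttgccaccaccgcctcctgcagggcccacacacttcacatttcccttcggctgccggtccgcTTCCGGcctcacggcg
4931408C20Rik: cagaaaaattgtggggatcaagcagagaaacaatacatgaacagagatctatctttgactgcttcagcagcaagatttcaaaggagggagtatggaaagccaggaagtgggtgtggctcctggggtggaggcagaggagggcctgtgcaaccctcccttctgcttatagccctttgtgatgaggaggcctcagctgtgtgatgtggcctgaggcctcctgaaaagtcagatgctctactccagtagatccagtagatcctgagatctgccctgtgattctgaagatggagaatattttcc
Gm34095: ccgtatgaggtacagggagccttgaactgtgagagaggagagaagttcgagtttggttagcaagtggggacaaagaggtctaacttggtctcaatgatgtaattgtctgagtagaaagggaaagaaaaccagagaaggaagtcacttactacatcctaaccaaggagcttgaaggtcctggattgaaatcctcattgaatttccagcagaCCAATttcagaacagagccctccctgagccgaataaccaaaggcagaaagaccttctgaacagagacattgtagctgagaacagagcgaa
Tert: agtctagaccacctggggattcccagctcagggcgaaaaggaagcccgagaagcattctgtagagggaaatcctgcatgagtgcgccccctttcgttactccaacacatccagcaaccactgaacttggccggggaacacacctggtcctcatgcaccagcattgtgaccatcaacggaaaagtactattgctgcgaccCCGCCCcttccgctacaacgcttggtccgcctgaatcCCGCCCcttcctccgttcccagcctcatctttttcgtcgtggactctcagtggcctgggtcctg

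The 4 windows differ in base composition. CpG dinucleotides numbered 24 in the Mfsd8 window, 15 in that of Tert, 4 in that of Gm34095 and 0 in that of 4931408C20Rik, against a median of 7 over 32851 windows. The Mfsd8 window held 2 ETS cores and 1 GC box, that of Gm34095 1 CCAAT, and that of Tert 2 GC boxes. None of the 4 letter strings was found in the 4931408C20Rik window, and the E-box was in none of the 4. Of all windows, 7.15% held the E-box, 14.9% the ETS core, 35.7% the GC box and 37.4% CCAAT.

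The depth of the groups differed. Control libraries held 1614815 to 2657910 counts in peaks and deleted libraries 1071255 to 1552405, without overlap. The floor of 3 counts was 1.13 to 2.80 CPM, where CPM scales a count to the total counts in peaks of its library, and this covers counting error only. Accessibility measured this way is relative to the library, and a change in every cell cannot be told apart from a change in the share of cells with the open site.

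Accessibility at the targeted gene comes first. At Tert 1 peak was tested, at its start (chr13:73626569-73627516). Its level in the control libraries was 21.1 and 22.4 CPM in MCAM-high 1 and 2, 22.3 in MCAM-high 3, and 19.04 and 20.4 in MCAM-medium 1 and 2. In deleted libraries it ran from 13.3 through a median of 19.6 to 22.9 CPM. The groups overlapped, and the log2 fold change (deleted minus control, here and throughout) was -0.13 ± 0.22 (SE; edgeR, adjusted p = 0.974). Since the labels do not place the deleted stretch, this peak does not check the genotype. Within 1 Mb of Tert 50 autosomal peaks were tested and 0 were called. The same count was 0 of 86 around Terc and 0 of 50 around the Rosa locus (Gt(ROSA)26Sor), and the smallest edgeR adjusted p-values of the 3 stretches were 0.718, 0.514 and 0.771.

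Terc, the RNA that carries the telomere template, had the largest signal of the telomerase genes. Its peak (chr3:96414052-96414936) reached 717, 711 and 618 CPM in control MCAM-medium 1, MCAM-high 2 and MCAM-high 3, and 177 and 191 CPM in control MCAM-high 1 and MCAM-medium 2. In deleted libraries it was 33.6, 516 and 192 CPM in MCAM-high 1, 2 and 3 and 26.4, 180.2 and 99.8 CPM in MCAM-medium 1, 2 and 3. The groups overlapped, and the pooled comparison did not pass (log2 fold change -1.44 ± 0.44, edgeR adjusted p = 0.514). It did pass when counts were summed over the gates of each number (-1.51, edgeR adjusted p = 0.00361) and with a gate term in which the gates of control 1 were exchanged (-1.19, edgeR adjusted p = 4.47e-04). With a correlation within numbers (limma voom), fitted at -0.193, the adjusted p was 0.191.

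The reason for pooling shows in the same libraries. Between the gates of the 6 deleted libraries, 439 peaks were higher and 59 lower in MCAM-medium cells of 33991 tested. At those 439 peaks the median log2 difference, MCAM-medium minus MCAM-high, was 1.83, 1.95 and 1.52 in deleted 1, 2 and 3 and 1.64 in control 2, but -1.56 in control 1. Only 1.59% of them were higher in the library labelled MCAM-medium in control 1, against 98.9% in control 2. A gate score was the mean log2(CPM + 1) at the first set minus that at the second. It was -1.63 and -1.52 in control MCAM-high 2 and 3 and 0.85 in control MCAM-medium 2. In control 1 it was 0.91 in the library labelled MCAM-high and -1.56 in that labelled MCAM-medium. Deleted libraries scored below 0 in MCAM-high and above 0 in MCAM-medium. They chose both sets of peaks, so the signs of their scores and medians were fixed in advance. Control libraries with a score below 0 held 618 to 717 CPM at Terc (n = 3), and those above 0 held 177 to 191 (n = 2). The 2 gates of control 1 are both in the pooled group, so an exchange of their labels leaves the pooled comparison as it is.

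**Figure D1:**
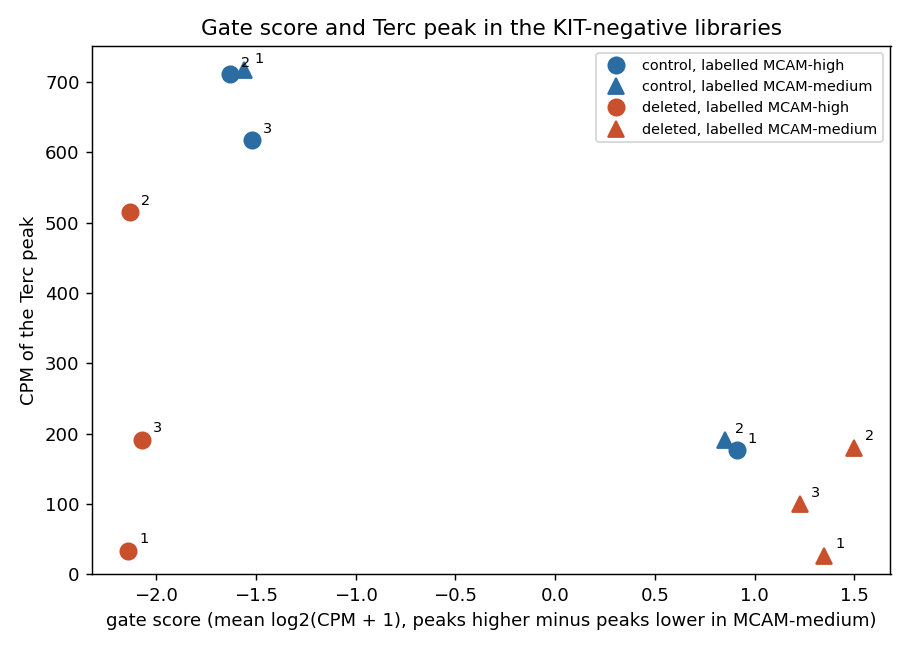
CPM of the Terc peak (vertical axis) against the gate score (horizontal axis) in the 11 KIT-negative libraries; each point is 1 library, colour gives the genotype, shape the labelled gate and the digit the number. Both control 1 libraries sit with the other gate, and the deleted libraries at each end run from 33.6 to 516 CPM and from 26.4 to 180.2 CPM.

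Across the genome the 2 groups were close. Of 40073 autosomal peaks tested, 21 passed an adjusted p of 0.05 (edgeR quasi-likelihood test, Benjamini-Hochberg), which is 0.0524%. Higher after deletion were 16 (0.0399%) and lower 5 (0.0125%). The median log2 fold change was 0.00 with an interquartile range of -0.20 to 0.20, and 2199 peaks (5.49%) had an unadjusted p under 0.05. Medians by class were 0.03 at gene ends, -0.01 in gene bodies (rounded from -0.005) and -0.05 between genes. The calls lay on 11 of the autosomes, with 5 of 2193 tested on chromosome 8 and 0 of 1959 tested on chromosome 13, which holds Tert. A further 32 calls outside the autosomes are given with the additional observations.

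**Figure D2:**
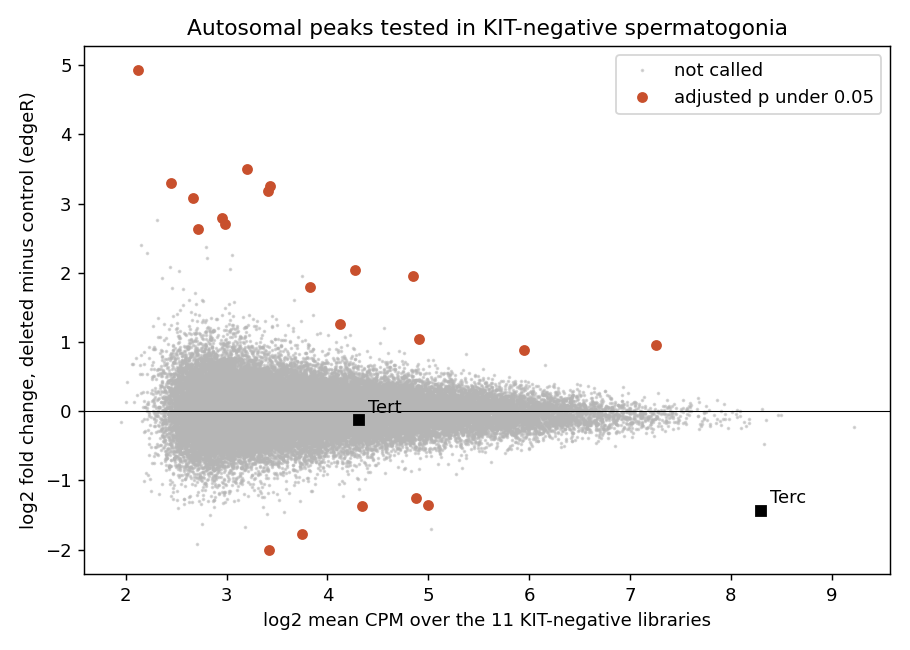
Log2 fold change, deleted minus control (vertical axis), against log2 mean CPM (horizontal axis) for the 40073 autosomal peaks tested, each 1 point; red marks the 21 with an edgeR adjusted p under 0.05 and black squares the Tert and Terc peaks. Most called peaks that were higher have low signal, and Terc stands far below 0 among strong peaks without passing.

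Of the 21 called peaks, 6 were at gene ends, 7 in gene bodies and 8 intergenic. Those classes held 40.4%, 31.1% and 28.5% of the autosomal peaks tested. In 19 of them, 15 higher and 4 lower, the CPM of the 5 control and 6 deleted libraries did not overlap, which was so for 0.739% of all peaks tested; the same contrast chose them. Their absolute log2 fold changes ran from 0.89 to 4.93 with a median of 2.01. Each of the 21 was also called with counts summed per number, with exchanged gates as a term and by DESeq2. With a correlation within numbers (limma voom) 13 of the 21 were called. That correlation was fitted at -0.193, and a value below 0 makes no allowance for libraries of 1 mouse being alike. The fit also models counts otherwise than edgeR, and which of these lost the calls was not tested. The 8 lost there were all higher after deletion, with adjusted p-values of 0.122 to 0.338: the peaks in a, Gm29967 and Mepe, at Gm34095, near Tdpoz1 and Zfp629, and the 2 higher ones on chromosome 8. With the replicate number as a block 17 were called. With each library left out in turn 13 were always called, and with each number left out 6 of the 21. Of those 6, 5 are described here, the peaks in Rest, at 4931408C20Rik, in a, at Gm34095 and near Gm40349.

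The start-site peak of Mfsd8, a transporter of the lysosomal membrane, was higher after deletion (chr3:40846418-40847394). Controls held 37.2, 53.9 and 40.0 CPM in MCAM-high 1 to 3 and 50.6 and 30.3 in MCAM-medium 1 and 2. Deleted libraries held 68.7 to 93.3 CPM with a median of 76.0, all above the controls. The log2 fold change was 0.89 ± 0.15 (edgeR, adjusted p = 0.00398), and the call was lost without the control or the deleted libraries numbered 1. At the start of 4931408C20Rik (chr1:26686845-26688325) controls held 6.02, 17.1 and 13.7 CPM and 9.75 and 10.53 CPM in the same order, and deleted libraries 28.8 to 62.5 with a median of 41.9. The groups did not overlap (1.95 ± 0.26, edgeR adjusted p = 8.07e-05). The start of the lncRNA Gm34095 (chr15:84576365-84576889) went from 0.929 to 3.59 CPM in controls to 9.33 to 19.97 CPM in deleted libraries, again without overlap (2.79 ± 0.43, edgeR adjusted p = 7.76e-04). Controls there were near the floor, and 19 counts in all 5 stood against 103 in the 6 deleted libraries.

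Inside genes, the clearest peak lay in Rest (chr5:77281456-77282624), which encodes a repressor of neuronal genes. Controls held 7.90, 4.49 and 6.85 CPM in MCAM-high 1 to 3 and 11.6 and 4.95 in MCAM-medium 1 and 2. Deleted libraries held 22.9 to 34.8 CPM with a median of 31.3, and no library of one group reached the other. The log2 fold change was 2.04 ± 0.26 (edgeR, adjusted p = 6.62e-05). A peak in a, the agouti coat colour gene (chr2:155020260-155020637), held 2.63, 0.449 and 3.43 CPM in control MCAM-high 1 to 3, 1.86 and 1.24 in MCAM-medium 1 and 2, and 11.6 to 34.5 with a median of 14.8 in deleted libraries. It did not overlap either (3.18 ± 0.43, edgeR adjusted p = 1.21e-04). Copg2 encodes a subunit of the COPI vesicle coat. Its peak (chr6:30804485-30805754) was 4.64 to 6.81 CPM in controls and 11.1 to 32.7 in deleted libraries (1.79 ± 0.31, edgeR adjusted p = 0.00407), and the call was lost without control 1 or deleted 3.

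Some called peaks were almost absent from the controls. In Garem1, an adaptor of ERK signalling, the peak (chr18:21129569-21129990) had 2 counts over the 5 control libraries, both in MCAM-high 1, and 62 over the 6 deleted ones, where it ran from 5.46 to 9.66 CPM with a median of 8.17. The ratio of CPM was 41 with an exact 95% counting interval of 10.9 to 346 (edgeR, adjusted p = 7.76e-04). The peak in the lncRNA Gm29967 (chr18:80382627-80383071) ran from 0.898 to 1.86 CPM in controls and from 5.00 to 31.0 in deleted libraries (3.50 ± 0.46, edgeR adjusted p = 8.07e-05). These groups did not overlap. When single deleted libraries were left out, both peaks fell under the filter on low counts in 5 of the 11 fits and were not tested there, and wherever a fit tested them their highest edgeR adjusted p was 0.0375 for Garem1 and 0.00367 for Gm29967. The peak in Mepe, a bone matrix protein (chr5:104331050-104331542), named after its values were seen, ran from 0.464 to 5.84 CPM in controls and 6.65 to 31.7 in deleted libraries (2.70 ± 0.56, edgeR adjusted p = 0.0353), and 5 of the 11 such fits kept the call.

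Lower after deletion was the peak in Bicra, a subunit of a chromatin remodeller of the BAF family (chr7:16028967-16029469). Controls held 25.96, 36.8 and 39.4 CPM in MCAM-high 1 to 3 and 33.0 and 18.0 in MCAM-medium 1 and 2, and deleted libraries 6.54 to 18.7 with a median of 9.51. The groups overlapped slightly, the log2 fold change was -1.38 ± 0.28 (edgeR, adjusted p = 0.0269), and 4 of the 11 fits without 1 library kept the call. The intergenic peak 4070 bp from Gm40349 (chr5:137190509-137191087) fell from 16.1 to 21.1 CPM in controls to 1.87 to 6.67 in deleted libraries, without overlap (-2.01 ± 0.32, edgeR adjusted p = 0.00115). Higher intergenic peaks lay 23372 bp from Tdpoz1 (3.26 ± 0.52, edgeR adjusted p = 0.00128), 2217 bp from Zfp629 (3.08 ± 0.56, edgeR adjusted p = 0.00803) and 7368 bp from Bmp4, a secreted factor of the TGF-beta family (1.26 ± 0.25, edgeR adjusted p = 0.0255). The last of these was named after its values were seen. Distance alone assigns these peaks to genes.

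Of the calls described here, the 7 that single libraries decide fall into 2 kinds. The peaks at Gm29967, Garem1 and Tdpoz1 dropped under the count filter without some deleted libraries, as described for the first of these, and the highest adjusted p of the Tdpoz1 peak where edgeR tested it was 0.0364. The other 4 lost the call in the test itself. Without control MCAM-medium 1 these were the peaks near Bmp4, in Bicra, in Mepe, and 34551 bp from Gm40469 on chromosome 8. Without control MCAM-high 1 the Bmp4 and Mepe peaks were lost, without MCAM-high 2 those of Bmp4 and Bicra, without MCAM-high 3 those of Bicra and Mepe, and without control MCAM-medium 2 that of Mepe. Among deleted libraries, leaving out MCAM-high 1 lost Mepe, MCAM-high 2 lost Bmp4 and the Gm40469 peak, and MCAM-high 3 lost Bmp4, Bicra and Mepe. Leaving out deleted MCAM-medium 1 or 2 lost Bmp4 and Bicra, and MCAM-medium 3 lost Bicra. The highest edgeR adjusted p over these fits and those without a number was 0.445 for Bmp4, 0.416 for Bicra, 0.815 for Mepe and 0.241 for the Gm40469 peak.

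**Figure D3:**
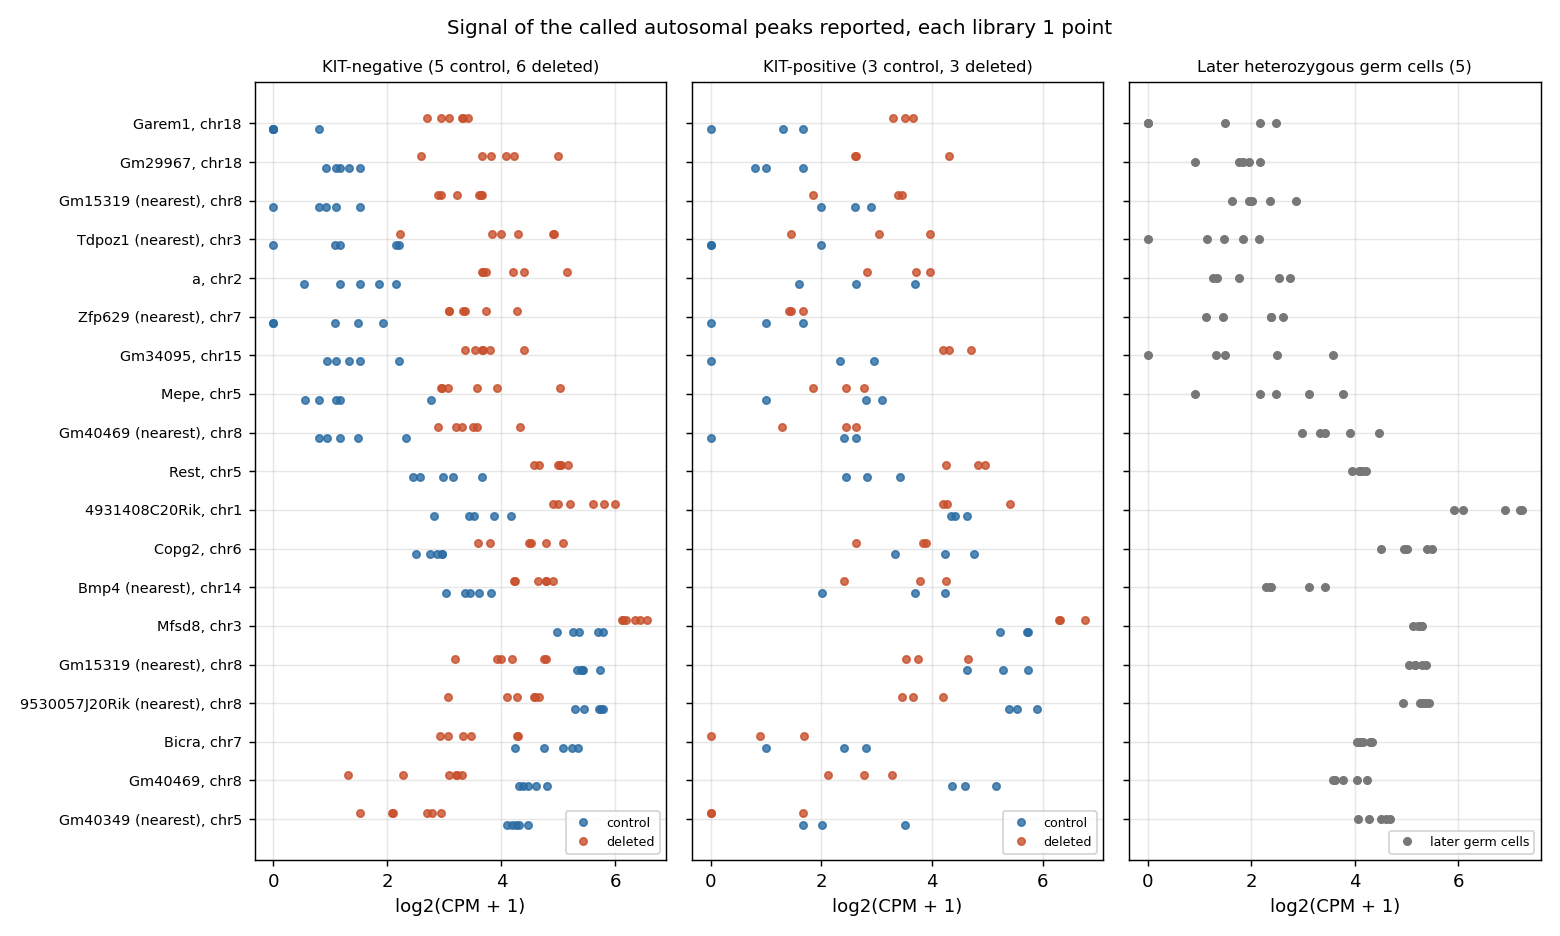
Log2(CPM + 1) (horizontal axis) of 19 of the 21 called autosomal peaks (rows) in KIT-negative, KIT-positive and later germ cell libraries, each library 1 point, with control in blue, deleted in red and later cells in grey. In the left panel, which chose the peaks, 18 of the 19 rows show separate groups.

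Of the calls, 5 lay in 1 stretch of chromosome 8 (chr8:20122075-20550886, 428811 bp), which held 10 peaks, 7 of them tested. The annotation places pseudogenes in it, and whether reads there map to 1 place was not tested. Of the called peaks 3 were lower and 2 higher. The lower ones had strong control signal. That 186745 bp from 9530057J20Rik held 51.5, 52.97 and 38.3 CPM in control MCAM-high 1 to 3, 54.3 and 42.7 in MCAM-medium 1 and 2, and 7.39 to 24.3 with a median of 20.6 in deleted libraries (-1.35 ± 0.22, edgeR adjusted p = 0.00144). The others were the peak in Gm40469 (-1.78 ± 0.32, edgeR adjusted p = 0.00533) and that at the end of the transcribed pseudogene 2610005L07Rik (-1.26 ± 0.22, edgeR adjusted p = 0.00551). The 2 higher ones had weak control signal, with 9 and 17 counts over the 5 control libraries (3.30 ± 0.57 and 2.63 ± 0.50, edgeR adjusted p = 0.00353 and 0.0115). At none of the 5 did control and deleted values overlap. All 5 calls were lost without the control libraries numbered 1. With a library or number left out, their highest edgeR adjusted p-values ran from 0.0597 to 0.241. In the wider window of 38 peaks, 15 were tested, 6 above and 9 below 0. The other 23 were under the count filter, with control means of 0.18 to 3.73 CPM, and at all 23 the mean of the deleted libraries was the higher one, so that it was higher at 29 of the 38. An edgeR fit without that filter had 52.4% of 93787 autosomal peaks above 0. The share among peaks under the filter alone was not counted.

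**Figure D4:**
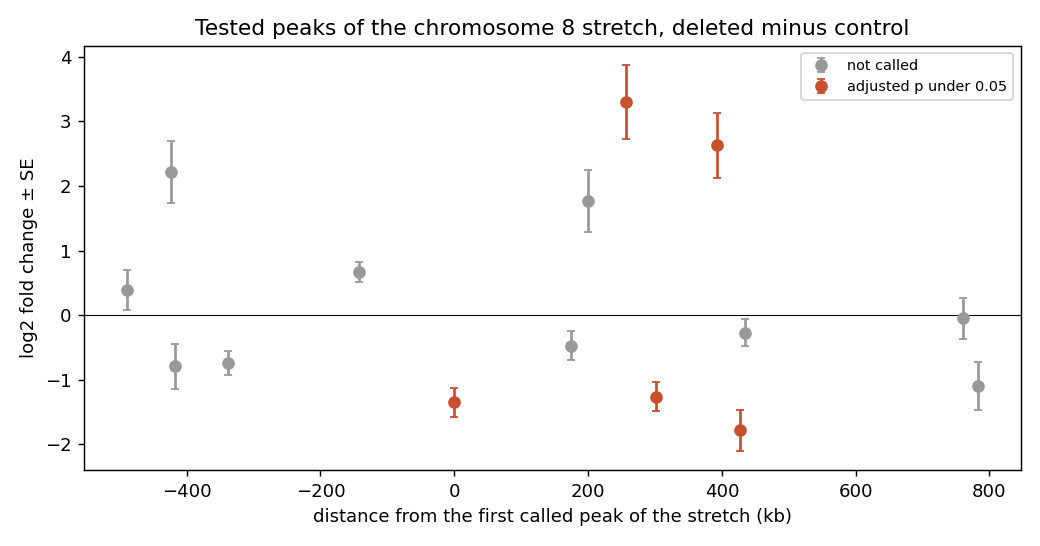
Log2 fold change, deleted minus control, ± SE (vertical axis) of the 15 tested peaks of the chromosome 8 window against their distance in kb from the first called peak (horizontal axis); red marks an edgeR adjusted p under 0.05. Called peaks with opposite signs alternate within the stretch, 3 below and 2 above 0.

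When the gates entered the model with those of control 1 exchanged, 65 autosomal peaks were called (0.162%), 38 higher (0.0948%) and 27 lower (0.0674%), and with counts summed per number 89 of 55598 (0.16%), 64 higher (0.115%) and 25 lower (0.045%). Both fits called 49 peaks, the 21 above and 28 others, of which 16 were higher and 12 lower. The exchange is read from the same libraries, so these 28 are a description, and the ones named here were chosen after their values were seen. Among them was the start-site peak of Hjurp (chr1:88277018-88277960), the chaperone of the centromeric histone CENP-A. It held 381 ± 42.5 CPM (SD, n = 5) in controls and 272 ± 47.4 (n = 6) in deleted libraries (exchanged gates -0.45, edgeR adjusted p = 0.00235; pooled -0.47, edgeR adjusted p = 0.0947). The peak in 1600014C10Rik (chr7:38191090-38192028) was 52.9 ± 28.7 against 15.5 ± 11.9 CPM (exchanged gates -1.65, edgeR adjusted p = 1.94e-05, and pooled -1.70, edgeR adjusted p = 0.0504). Control MCAM-high 1 and MCAM-medium 1 held 21.4 and 22.3 CPM there, within the deleted range of 5.60 to 38.2, and the other controls 66.3 to 78.1. At Scmh1, a Polycomb gene, the peak near the gene end was 26.1 ± 10.6 against 10.9 ± 5.12 CPM, with overlap (exchanged gates -1.11, edgeR adjusted p = 0.0255, and pooled -1.23, edgeR adjusted p = 0.282). In Mecom, a zinc-finger transcription factor gene, the peak was 2.13 ± 0.812 against 8.83 ± 3.43 CPM (exchanged gates 1.97, edgeR adjusted p = 0.0334, and pooled 2.02, edgeR adjusted p = 0.102).

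Measures of whole libraries differed in how widely reads were spread. Thinned to 1 depth, the control libraries detected 76918, 77339 and 78028 autosomal peaks in MCAM-high 1 to 3 and 78158 and 76392 in MCAM-medium 1 and 2, and deleted libraries 79336 to 82922. The groups did not overlap, and the mean difference was 3962 peaks (exact two-sided permutation test, p = 0.00433, adjusted over 6 measures 0.0195). The share of autosomal counts in the 1000 strongest peaks was 12.5 ± 0.446% (SD, n = 5) in controls and 11.7 ± 0.345% (n = 6) in deleted libraries (exact permutation test, p = 0.00649, adjusted 0.0195). The ranges overlapped. The deleted libraries were also the shallower ones, and the part of library quality in these differences was not tested. With counts summed per number, both differences had an adjusted exact permutation p of 0.15, but 3 against 3 cannot pass that test. The share of counts at gene ends was 53.9 ± 1.46% in controls and 53.6 ± 0.584% in deleted libraries (exact permutation test, adjusted p = 0.66), and at start sites 42.5 ± 1.21% and 42.0 ± 0.575% (exact permutation test, adjusted p = 0.539).

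**Figure D5:**
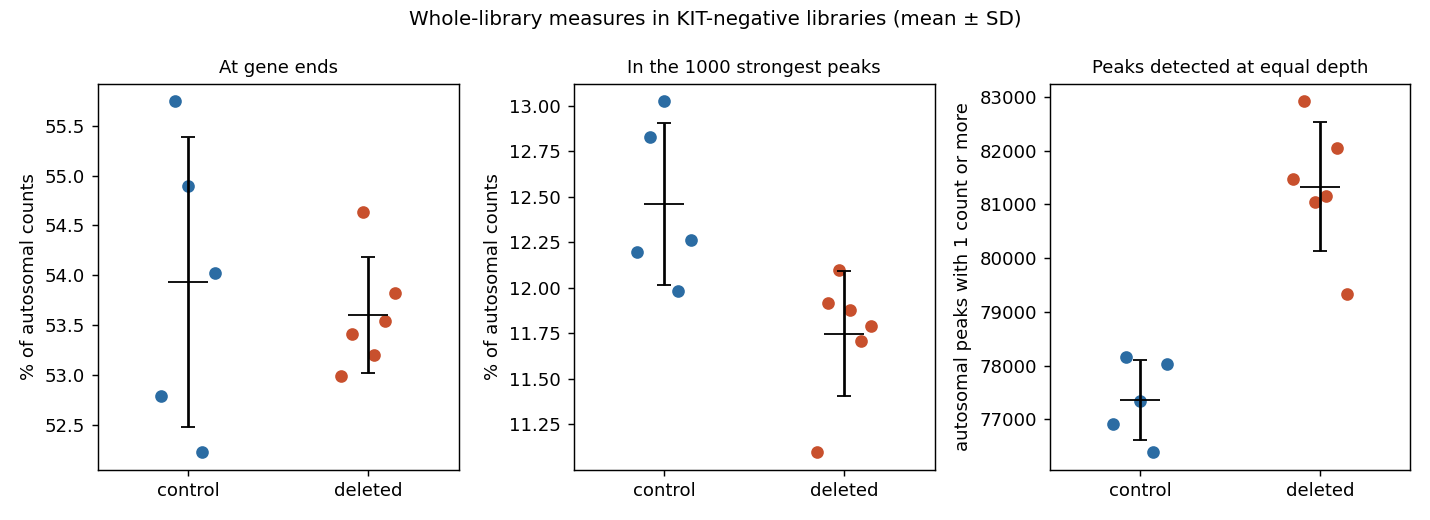
Share of autosomal counts at gene ends (left, %), share in the 1000 strongest peaks (middle, %) and autosomal peaks detected at equal depth (right), for the 5 control and 6 deleted KIT-negative libraries; points are libraries, bars mean ± SD, and axes do not start at 0. Only the right panel has separate groups, 76392 to 78158 against 79336 to 82922.

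Gene lists were described by 1 gene-end peak per gene. Over all 17300 genes with such a peak the median log2 fold change was 0.02, 7 were higher, 1 was lower, and 6.17% had an unadjusted p under 0.05. In each of the 15 lists 0 genes were called by edgeR, 15 of their 245 tested entries had an unadjusted p under 0.05, and list medians lay between -0.08 and 0.16. Of the telomerase and telomere list 20 of 22 genes were tested, with a median of -0.03 and 4 at an unadjusted p under 0.05. After Terc its smallest p-values were at Acd, which encodes the shelterin protein TPP1 (28.1 ± 3.48 against 40.6 ± 10.5 CPM, log2 fold change 0.55 ± 0.19, edgeR adjusted p = 0.689), and Gar1, a protein of H/ACA particles such as telomerase (0.57 ± 0.23, edgeR adjusted p = 0.797).

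Genes of the undifferentiated state had a median of 0.02 over 24 of 30 tested. The transcription factor genes Etv5 (119.9 ± 5.68 against 94.6 ± 12.9 CPM, -0.32 ± 0.12, edgeR adjusted p = 0.718) and Zbtb16 (-0.33 ± 0.16, edgeR adjusted p = 0.891) had the smallest p-values there. The differentiation list had a median of 0.16 over 15 of 20, led by Cyp26a1, which degrades retinoic acid (0.66 ± 0.27, edgeR adjusted p = 0.779), and the retinoic acid receptor gene Rarg (0.62 ± 0.32, edgeR adjusted p = 0.898). In the GDNF, FGF and MAPK list (median -0.01, 21 of 22) these were Dusp4 (0.42 ± 0.20) and Etv4 (0.40 ± 0.19), and among WNT targets (0.03, 16 of 18) Wnt6 (0.66 ± 0.29). The MYC target and ribosome biogenesis list (0.14, 30 of 32) had Eif5a (0.39 ± 0.15) and Rrn3 (-0.38 ± 0.19) first. In the MYC and MAX network (0.07, 13 of 13) Mxd1 was first (-0.21 ± 0.14). The kinase gene Chek2 led the p53 and DNA damage list (0.06, 23 of 26) at -0.29 ± 0.11. Mcm7 led replication and cell cycle (0.04, 29 of 30) at 0.35 ± 0.16, Syce1 meiosis (0.06, 26 of 30) at 0.60 ± 0.30, and Gapdhs spermiogenesis (-0.08, 6 of 20) at -0.50 ± 0.18. None of these values passed.

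Markers of other testis cells were summed over the gene-end peaks tested. Sertoli markers (10 of 13 tested, median -0.03) summed to 241 to 268 CPM in controls and 224 to 266 in deleted libraries, and the groups overlapped. Immune markers (3 of 10, median 0.10) summed to 30.3 to 35.9 and 27.5 to 42.5 CPM, and peritubular and endothelial markers (7 of 11, median -0.08) to 108 to 132 and 92.7 to 139 CPM. Of 8 Leydig markers 2 were tested, with a median of -0.06. A gene-end peak can be open in cells that do not transcribe the gene, so these sums do not give shares of other cells. The markers of undifferentiated spermatogonia were likewise open in both groups, at sums of 702 to 853 and 691 to 774 CPM.

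The KIT-positive libraries, which the calls did not use, gave the same peaks another measurement. There 30529 autosomal peaks were tested, with 0 higher and 1 lower (0.00328%; edgeR, 700 at an unadjusted p under 0.05). The 1 call was the chromosome 8 peak 186745 bp from 9530057J20Rik, at 41.0, 45.5 and 58.9 CPM in control 1 to 3 and 17.3, 9.98 and 11.6 in deleted 1 to 3 (-1.94 ± 0.34, edgeR adjusted p = 0.0216). Of the 21 peaks, 13 were tested there, 12 had the same sign and 1, in Copg2, the opposite (-0.62 ± 0.44). The share of same signs over all peaks was not counted. At 4931408C20Rik (0.29 ± 0.36), in a (0.89 ± 0.60) and near Bmp4 (0.19 ± 0.52) changes were smaller than in KIT-negative cells, and groups overlapped. At Gm34095 (2.37 ± 0.52 against 2.79 in KIT-negative cells) and in Garem1 (3.25 ± 0.89 against 4.93) they were also smaller, but groups did not overlap. In Gm40469 the change was larger (-2.19 ± 0.44 against -1.78), again without overlap. Among peaks not tested, the mean in Mepe was 4.86 CPM in controls and 4.29 in deleted libraries. Groups of CPM did not overlap at 8 of the 21, all in the same direction, against 7.81% of the autosomal peaks tested in KIT-negative cells and 7.52% of those tested in KIT-positive cells. At Rest they were 4.47, 9.76 and 6.09 CPM in control 1 to 3 and 18.2, 30.0 and 27.7 in deleted 1 to 3 (1.95 ± 0.42, edgeR adjusted p = 0.302). KIT-positive and KIT-negative libraries carry the same numbers and may share mice, so the 2 populations are not independent. A test of the difference of the effects between them called 0 of 55923 peaks (edgeR, 2580 at an unadjusted p under 0.05).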

How the data were processed

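The authors deposited 1 table of raw read counts per peak, not normalized, with chromosome, start and end per the file headers. The tools named per the submitters' processing notes are Bowtie2, Picard, SAMtools and FastQC, and the builds GRCm38, mm10 and hg19, of which the role is not stated. How peaks were called and counted, and whether duplicates were removed or reads shifted for Tn5, is not given in the sources used here. Even numbers made up 48.8% to 73.7% of the nonzero counts in KIT-negative libraries, so both ends of a fragment may have been counted in some libraries, which makes counting intervals too narrow. Starts were used as deposited.

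Samples were grouped by titles and marker entries. The 5 control and 6 deleted KIT-negative libraries entered 1 fit per peak in R 4.3.3 with edgeR 4.0.16 (filterByExpr, TMM, quasi-likelihood F test, Benjamini-Hochberg over all 41089 peaks tested, threshold 0.05), with 9 residual degrees of freedom. KIT-positive libraries were fitted alone. SE was derived from the log2 fold change and F. CPM uses total counts in peaks. Whole-library measures used an exact two-sided permutation over the 462 splits, whose smallest possible p is 0.00216. Libraries with 1 number may come from 1 mouse, and nothing in the labels says so or says that numbers are separate mice, and p-values then cover only library-to-library spread, which may be technical. Genes came from a RefSeq table of GRCm38.p6, and 304 of 305 list entries were found. Alternatives used DESeq2 1.42.0, limma 3.58.1, other scalings and filters, gate terms and left-out libraries.

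Peaks named were up to 12 called in each direction with the smallest p, every called peak of a stretch with 3 or more within 1 Mb, Tert, Terc, and up to 2 members of each list; 18 of the 21 calls met this. The counts cover all 21 calls, of which 2 are not reported one by one here. The comparison and the lists were chosen with earlier results of these data known.

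The fit was tested on simulated counts for the 41089 peaks in which known peaks were changed. With a dispersion per peak, 32 of 100 peaks changed 2-fold and 88 of 100 changed 4-fold were called, with 13 false calls among 133 (9.77%, above the nominal share). A second simulation with dispersions on the fitted trend, added after the first had been seen, gave 44 and 89 of 100 and 8 false calls among 141 (5.67%).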

Additional observations from a re-analysis of the deposited data

Results flagged for a closer look

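In 8 of 77 groups of 5 or 6 libraries 1 value stood far from the rest by Dixon's criterion. Chance meets it in about 1 of 20 groups of normally distributed values. Groups here pool both gates and some hold few counts, so that rate need not apply to them. In deleted libraries these were MCAM-high 1 at the peak in a (34.5 CPM, the others 11.6 to 19.996), MCAM-medium 1 at Gm34095 (19.97, the others 9.33 to 13.0), MCAM-high 2 at the higher chromosome 8 peak 34551 bp from Gm40469 (19.1, the others 6.44 to 10.8), MCAM-high 1 at Mepe (31.7, the others 6.65 to 14.2) and MCAM-high 2 at Terc (516, the others 26.4 to 192). In control libraries they were MCAM-high 1 at Garem1 (0.752 CPM, the others 0), MCAM-medium 1 at the end of 2610005L07Rik (52.0, the others 39.0 to 42.1) and MCAM-high 2 at Mepe (5.84, the others 0.464 to 1.24).

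Outside the autosomes 32 peaks were called by edgeR in the same comparison, 31 higher and 1 lower after deletion. Of all 41089 peaks tested 40073 were autosomal, and 0.0524% of those were called, so that calls were more frequent outside the autosomes. Of the 32 calls 18 lay on 1 unplaced contig (JH584304), 11 on Y and 1 on X. The peaks tested on each of these were not counted.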

How the results depend on the processing

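All 21 called peaks kept their sign wherever they were tested. Counts of higher and lower autosomal peaks, 16 and 5 as reported, became 35 and 12 with DESeq2, 64 and 16 without a filter on low counts, 64 and 25 with counts summed per number, 18 and 11 with a correlation within numbers (limma voom, 13 of the 21 among them), 38 and 27 with exchanged gates as a term, and 35 and 6 with all 17 spermatogonial libraries in 1 fit; the causes were not tested. Leaving out libraries or numbers gave 8 to 21 higher and 2 to 9 lower. Without control number 1 they were 10 and 3, without deleted number 1 8 and 2, without deleted number 3 8 and 5, and 9 were lower without control MCAM-high 1 or deleted MCAM-high 2. With autosomes alone in the fit 17 of the 21 were called. At 1 depth 14 were, and 5 were not tested.

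In KIT-positive cells leaving out a library gave 0 to 2 higher and 0 to 4 lower. With counts summed per number 1 telomerase gene, Terc, was called. Tert changed sign to 0.07 at 1 depth. The differences in the share of the 1000 strongest peaks (-0.696 points) and in peaks detected (5752) had an adjusted exact permutation p of 0.15 when summed per number, where 3 against 3 cannot pass. The first ran from -0.841 to -0.558 with a library left out (adjusted 0.0571 without control MCAM-high 2). The gene-end difference ran from -0.764 to 0.118, turning without control MCAM-medium 1, and the intergenic one from -0.34 to 0.00153, turning without control MCAM-high 3.

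With the replicate number as a block 13 peaks were higher and 6 lower, 17 of the 21 among them, and in KIT-positive cells 0 and 2. Same-numbered control and deleted libraries did not deviate together (correlations 0.024, -0.009 and -0.007), so the numbers were not taken as a pairing.

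At these depths 3 counts are 1.13 to 2.80 CPM, and in simulation 32 to 44 of 100 changes of 2-fold were called.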
